A study of Homo sapiens with 5 samples.

Results

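Integrins are receptors of the cell surface made of an alpha and a beta subunit, and they tie the extracellular matrix to the cytoskeleton and to signaling inside the cell. The subunits described here bind collagens or laminins. ITGA1 and ITGA2 (alpha 1 and alpha 2) pair with the beta 1 subunit as collagen receptors, ITGA3, ITGA6 and ITGA7 (alpha 3, 6 and 7) pair with beta 1 as laminin receptors, and ITGB4 (beta 4) pairs with ITGA6 in hemidesmosomes, the junctions that anchor epithelium to its basement membrane. The ITGA6 receptors are well known on undifferentiated human embryonic stem cells (hESC), which attach to laminin. All probe sets of the array whose annotated gene is 1 of these 6 were taken, which gave 11 of the 22215 probe sets tested: 4 for ITGB4, 2 each for ITGA6 and ITGA7, and 1 each for ITGA1, ITGA2 and ITGA3. All 6 genes were measured and no filter on low values was applied.

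The cells were of HES2, an established hESC line, transduced with a lentiviral vector and then left for 2 weeks to differentiate spontaneously without feeder cells or bFGF. In the wt group (2 arrays) the vector encoded wt hsa-miR-122, a miRNA of the liver, and in the mutant group (3 arrays) it encoded the same miRNA with changed bases in its seed. Both vectors drove the miRNA from the constitutive H1 promoter and also carried a red fluorescent reporter, so that the mutant arrays are the only control and no untransduced or empty-vector cells were arrayed. According to the methods the dishes were coated with fibronectin, which is bound by other integrins than the ones described here, the feeders used before were human foreskin cells, and the arrays of a group came from independent experiments. The comparison asks which mRNAs differ when differentiating hESC carry a working in place of a mutated miR-122 seed.

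The overexpressed miRNA is shown because its seed is what separates the groups. RefSeq places hsa-miR-122-5p on GRCh38.p14 at chr18:58451088-58451109 on the plus strand. It is written 5′ to 3′ with the seed, bases 2 to 8, in capitals.
hsa-miR-122-5p: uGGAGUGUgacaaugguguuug

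Each value is a log2 RMA value of 1 probe set on 1 array, and a difference is the mean of the wt arrays minus the mean of the mutant arrays on that scale. Array medians ranged from 6.32 to 6.36, and the arrays correlated pairwise at 0.9946 to 0.9973 over the probe sets. Standard errors (SE), intervals and adjusted p-values are those of limma, fitted and adjusted over all 22215 probe sets. Values of different probe sets were not compared with each other, since probes differ in how brightly they bind. The smallest two-sided p of an exact permutation test on a single value is 0.1 with 3 arrays against 2.

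In wt miR-122-expressing cells the values of ITGA1 were lower and those of ITGA6 and ITGA7 higher than in mutant miR-122-expressing cells, but none of the 11 probe sets passed an adjusted p of 0.05 by limma. The same count was 0 by the methods' t-test with Benjamini-Hochberg adjustment, and over all probe sets 0.383% passed by limma. At an unadjusted p of 0.05, limma gave 3 higher probe sets (both of ITGA6 and 1 of ITGA7, where 8.06% of all probe sets were higher) and 1 lower (ITGA1, where 6.37% were lower). The methods' t-test gave 2 higher, both of ITGA6, and 1 lower, a probe set of ITGB4. Of all 22215 probe sets, that test gave 1551 higher and 873 lower at an unadjusted p of 0.05. Both wt arrays lay above all mutant arrays on 4 of the 11 probe sets and below them on 2, against 20.3% and 12.5% of all probe sets. The median difference was 0.01 over the 11 probe sets and 0.025 over all probe sets. By their means 6 of the 11 probe sets were higher and 5 lower, where 57.9% of all probe sets were higher.

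**Figure D1:**
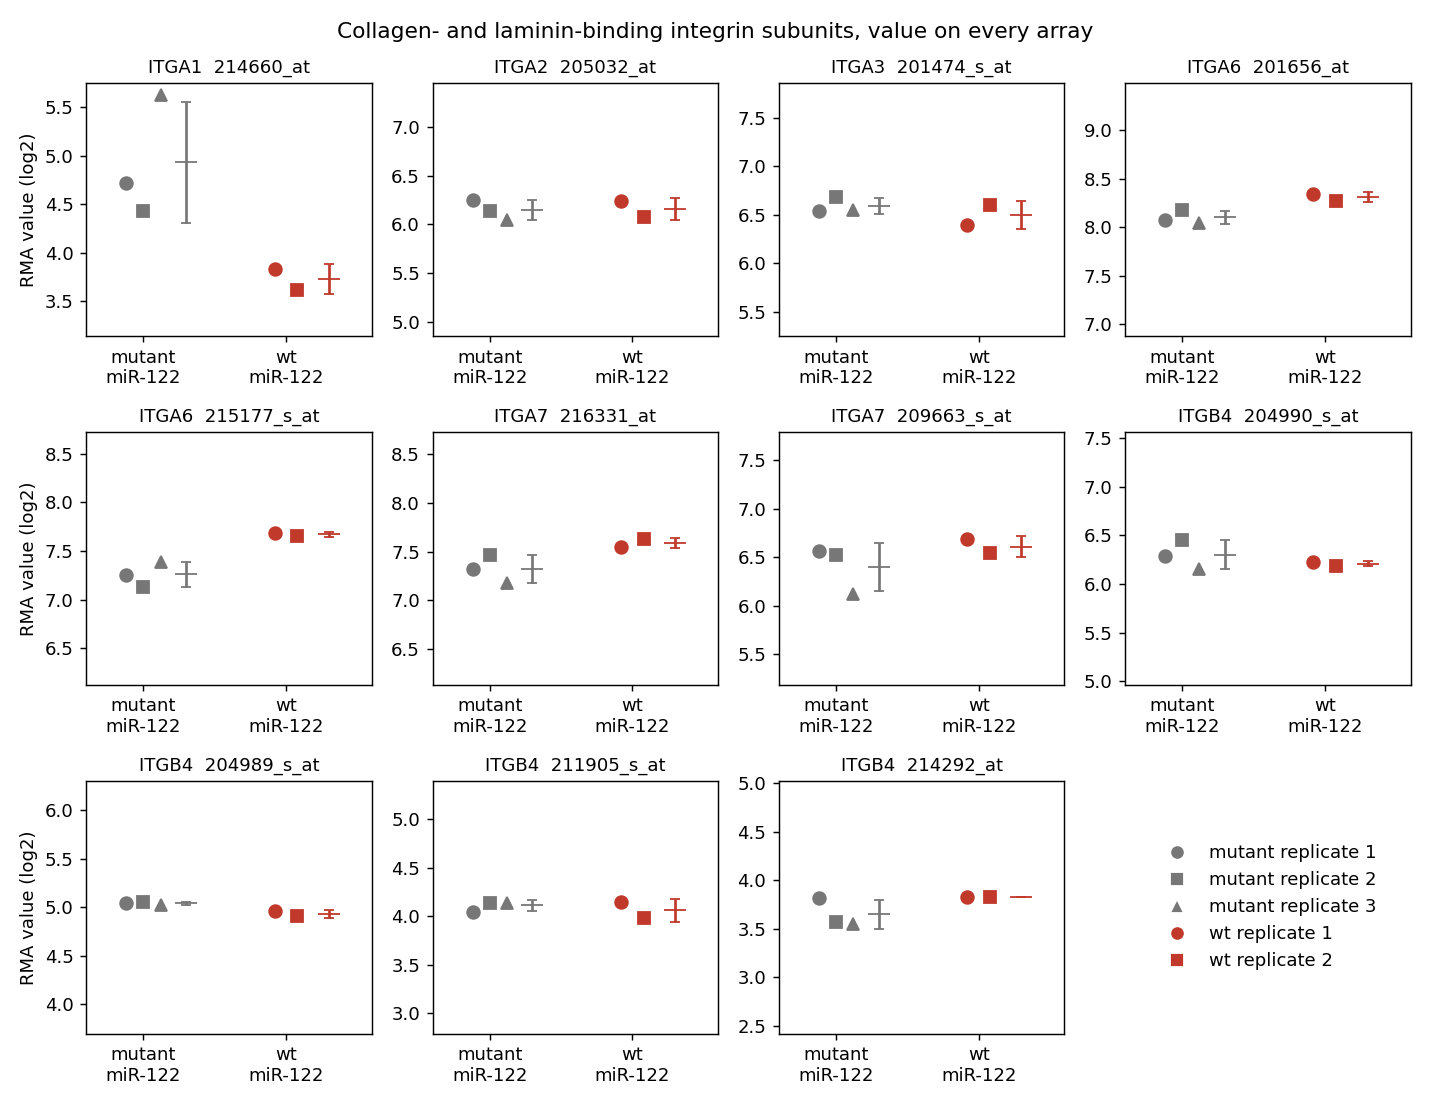
RMA value (log2, y axis, each panel spanning the same range) of the 11 probe sets on every array. Grey symbols are the 3 mutant arrays, red symbols the 2 wt arrays. Group mean and SD are drawn as bars. On ITGA1 the mutant arrays spread from 4.43 to 5.62 above both wt arrays, and on both probe sets of ITGA6 the wt arrays lie above the mutant arrays.

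ITGA1, the alpha 1 subunit of a receptor for collagens that is abundant on smooth muscle and other mesenchymal cells, had the largest difference of the 11 probe sets. Its only probe set, 214660_at, read 4.72, 4.43 and 5.62 on mutant replicates 1, 2 and 3, and 3.83 and 3.62 on wt replicates 1 and 2. The groups did not overlap, with a gap of 0.60 between the lowest mutant and the highest wt array, and mutant replicate 3 stood well above the other mutant arrays. Mutant arrays averaged 4.93 ± 0.62 (SD, n = 3) and wt arrays 3.73 ± 0.15 (SD, n = 2), a difference of -1.20 (SE 0.298, 95% confidence interval -1.89 to -0.51, adjusted p = 0.144 from limma). Turned back from log2, the geometric mean of mutant miR-122-expressing cells was 2.3-fold that of wt miR-122-expressing cells. Only 3 of the 22215 probe sets, this one included, had a difference as low.

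The values of ITGA1 were widely spread among the mutant arrays. They covered a range of 1.19, wider than in 99.9% of all probe sets, against a median range of 0.169. Without mutant replicate 3 the difference was -0.85 (SE 0.125, adjusted p = 0.0732 from limma), in a fit where 0 of all probe sets passed. Leaving out each of the 5 arrays in turn, the difference ran from -1.45 to -0.85. The methods' t-test gave an unadjusted p of 0.0835. The probe set is dim, at percentile 24.4 of mean level over all probe sets, and the deposited values carry no detection call.

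The gene span of PELO, a ribosome rescue factor, lies within that of ITGA1 in RefSeq. It was looked up after the values of ITGA1 were seen. Its brighter probe set 218472_s_at read 7.91, 7.84 and 8.15 on the mutant arrays and 7.79 and 7.73 on the wt arrays, a difference of -0.21 (SE 0.103, adjusted p = 0.414). Both wt arrays were below the mutant arrays and mutant replicate 3 was again the highest, while the dim probe set 221076_at of PELO gave 0.08 (SE 0.092) with overlapping groups.

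ITGA2, the alpha 2 subunit of the other collagen receptor among the members, did not differ beyond the spread within a group. Probe set 205032_at read 6.25, 6.14 and 6.05 on the mutant arrays and 6.24 and 6.08 on the wt arrays. The wt values lay inside the mutant range. The difference was 0.01 (SE 0.0916, 95% confidence interval -0.21 to 0.22, adjusted p = 0.985), so that a change beyond these bounds in either direction lies outside the interval. The intervals of ITGA1 and ITGA2 do not overlap, but the difference between the changes of the pair was not tested.

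ITGA6, the alpha 6 subunit of laminin receptors, had higher values in wt miR-122-expressing cells on both probe sets. For 215177_s_at the mutant arrays read 7.25, 7.13 and 7.39 and the wt arrays 7.69 and 7.65. The gap between the groups was 0.26, as wide as the whole mutant range. Mutant arrays averaged 7.26 ± 0.13 (SD, n = 3) and wt arrays 7.67 ± 0.03 (SD, n = 2), a difference of 0.41 (SE 0.0922, 95% confidence interval 0.20 to 0.63, adjusted p = 0.114), or 1.33-fold. Of all probe sets, 1.04% had a difference as high.

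On the brighter probe set of ITGA6, 201656_at, the mutant arrays read 8.07, 8.18 and 8.04 and the wt arrays 8.34 and 8.27. The groups again did not overlap, but the gap was only 0.09. The difference was 0.21 (SE 0.0794, 95% confidence interval 0.02 to 0.39, adjusted p = 0.295), or 1.15-fold. With the mean of both probe sets in the fit, ITGA6 was at 0.31 (SE 0.0659, adjusted p = 0.0831). No array decided the direction: leaving out each in turn gave 0.35 to 0.48 on 215177_s_at and 0.17 to 0.25 on 201656_at.

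ITGA7, the alpha 7 subunit of the laminin receptor of skeletal and smooth muscle, also had higher means on each probe set. Probe set 216331_at read 7.32, 7.46 and 7.18 on the mutant arrays and 7.55 and 7.63 on the wt arrays. Both wt arrays lay above the mutant arrays, by 0.09, and mutant replicate 3 was the lowest. The difference was 0.27 (SE 0.0968, 95% confidence interval 0.04 to 0.49, adjusted p = 0.273), or 1.2-fold. Probe set 209663_s_at read 6.57, 6.52 and 6.12 on the mutant arrays and 6.69 and 6.54 on the wt arrays. Here the groups overlapped, and the difference of 0.21 (SE 0.138, adjusted p = 0.532) fell to 0.07 without mutant replicate 3, the low array. With the mean of both probe sets ITGA7 was at 0.24 (SE 0.107, adjusted p = 0.323).

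ITGA3, the alpha 3 subunit of an epithelial laminin receptor, did not differ beyond its spread. Probe set 201474_s_at read 6.54, 6.68 and 6.55 on the mutant arrays and 6.40 and 6.60 on the wt arrays. The wt arrays lay on either side of the mutant mean of 6.59. The difference was -0.08 (SE 0.091, 95% confidence interval -0.30 to 0.13, adjusted p = 0.721), and it was 0.02 without wt replicate 1.

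ITGB4, the beta 4 subunit with the long cytoplasmic tail that binds the hemidesmosome plaque, was measured by 4 probe sets that did not share a direction. The brightest, 204990_s_at, read 6.29, 6.45 and 6.15 on the mutant arrays and 6.23 and 6.19 on the wt arrays, a difference of -0.09 (SE 0.0982, 95% confidence interval -0.32 to 0.14, adjusted p = 0.73). The wt arrays lay within the mutant range. The tightest was 204989_s_at, at 5.05, 5.06 and 5.02 on the mutant and 4.96 and 4.91 on the wt arrays. Both wt arrays were below the mutant arrays there, by 0.06, with a difference of -0.11 (SE 0.0717, adjusted p = 0.537), and this is the probe set that the methods' t-test puts at an unadjusted p of 0.0198.

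The other probe sets of ITGB4 were dim, at percentile 19.2 of mean level or lower. Probe set 211905_s_at ran from 4.04 to 4.14 on the mutant arrays and read 4.15 and 3.98 on the wt arrays, a difference of -0.04 (SE 0.0845). The groups overlapped and the sign turned to 0.04 without wt replicate 2. Probe set 214292_at read 3.82, 3.57 and 3.55 on the mutant arrays and 3.83 on each wt array. The wt arrays exceeded mutant replicate 1 by only 0.01, and the difference was 0.19 (SE 0.0994, adjusted p = 0.447). With the mean of the 4 probe sets, ITGB4 was at -0.01 (SE 0.0685, adjusted p = 0.941).

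**Figure D2:**
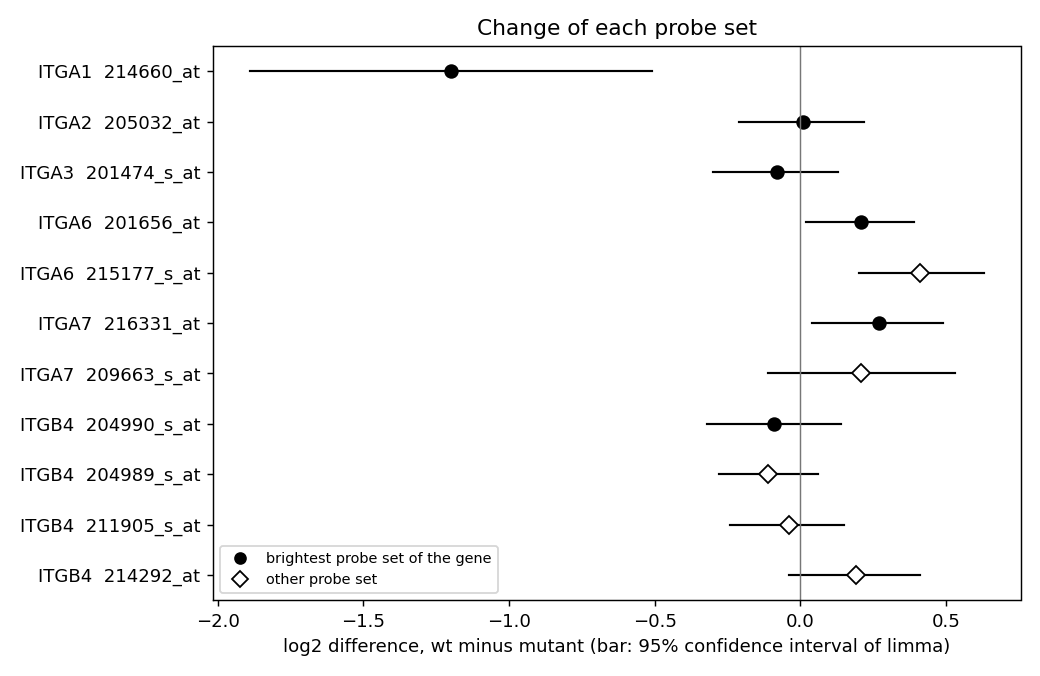
Difference in log2 value, wt minus mutant (x axis), of the 11 probe sets, with the 95% confidence interval of limma. Filled circles are the brightest probe set of a gene and open diamonds its other probe sets. The intervals of ITGA1, both probe sets of ITGA6 and 216331_at of ITGA7 leave out 0, before any adjustment for 22215 tests, and the 4 probe sets of ITGB4 fall on both sides of 0.

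**Figure D3:**
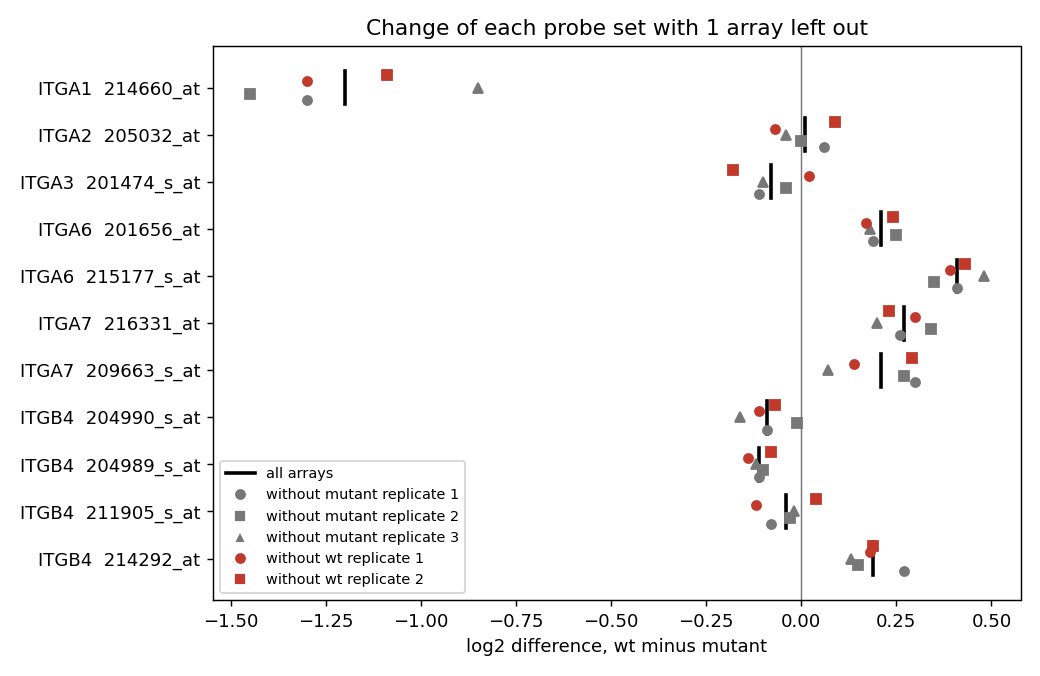
Difference in log2 value, wt minus mutant (x axis), of the 11 probe sets with all arrays (black line) and with 1 array left out (grey symbols for mutant, red for wt arrays). ITGA1 stays between -1.45 and -0.85 and both probe sets of ITGA6 stay above 0, while ITGA2, ITGA3 and 211905_s_at of ITGB4 cross 0.

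For the members whose brightest probe set separated the groups, the 3 genes with the most similar values were looked up among all genes, by the root mean square distance between log2 values over the 5 arrays after each probe set's own mean was subtracted. For ITGA1 these were TGFB2, a ligand of the TGF-beta family, at a distance of 0.193, FOXF2, a forkhead transcription factor of mesenchyme, at 0.194, and GLIPR1 at 0.199. TGFB2 read 7.44, 7.37 and 8.06 on the mutant arrays and 6.73 and 6.57 on the wt arrays, a difference of -0.97 (adjusted p = 0.0917). FOXF2 gave -0.88 (adjusted p = 0.174) and GLIPR1 gave -0.85 (adjusted p = 0.172). Each of them, like ITGA1, was highest on mutant replicate 3, but likeness over these same arrays was how they were chosen.

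The nearest genes of ITGA6 were MAML1, a coactivator of Notch, at a distance of 0.0114, BIN1, a membrane-bending adaptor, at 0.0128, and TMEM135 at 0.0132. Their differences were between 0.18 and 0.23. Those of ITGA7 were the noncoding RNA SNHG32, at a distance of 0.0195, the tRNA methyltransferase subunit TRMT11, at 0.0244, and DFFA, an inhibitor of DNA fragmentation, at 0.0248. Their differences were between 0.28 and 0.31. None of these genes passed the adjusted threshold, and likeness over 5 arrays is a description only, since many genes share so short a pattern.

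**Figure D4:**
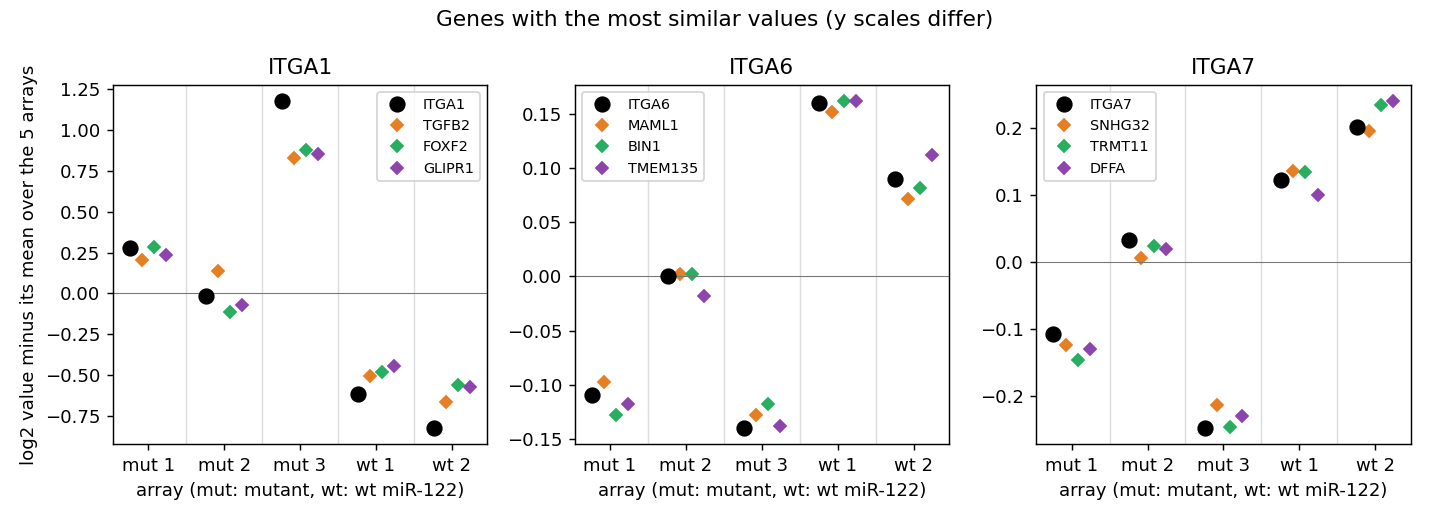
Log2 value of 1 probe set minus its mean over the 5 arrays (y axis, scales differ) on each array (x axis) for ITGA1, ITGA6 and ITGA7 (black circles) and the 3 genes nearest to each (coloured diamonds). Mutant replicate 3 is the highest array for ITGA1 and its nearest genes, and the lowest for ITGA7 and its nearest genes. The nearest genes were chosen for likeness over these same arrays, so the shared pattern follows from the choice.

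The same arrays were then read for the genes these subunits work with, each gene at its brightest probe set. Of 81 measured genes on the lists of other subunits, receptors, ligands, partners and adaptors, none passed an adjusted p of 0.05 by limma, where 0.502% of all genes did, and none passed by the methods' t-test after adjustment. At an unadjusted p of 0.05, 19 were lower and 3 higher, against 6.87% and 8.84% of all 11963 genes. The median difference of the 81 genes was -0.10, against 0.027 for all genes.

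The partner subunit ITGB1 (beta 1), shared by the alpha subunits above, did not differ beyond its spread. It read 12.09, 12.20 and 12.27 on the mutant arrays and 12.10 and 12.11 on the wt arrays, a difference of -0.08 (SE 0.0822, adjusted p = 0.695). The wt arrays lay inside the mutant range. ITGA10, another collagen-binding alpha subunit, gave 0.16 (SE 0.0809, adjusted p = 0.424) on a dim probe set, and ITGA11 was not measured by a probe set of its own.

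Among 15 measured RGD-binding and other integrin subunits, 3 were lower and 2 higher at an unadjusted p of 0.05 and the median was -0.09. These subunits bind fibronectin, vitronectin, cell-surface ligands or blood proteins. ITGAV (alpha V) gave -0.56 (SE 0.105, adjusted p = 0.0812) and ITGA5 (alpha 5, of the fibronectin receptor) gave -0.26 (SE 0.0829, adjusted p = 0.216). ITGB7, a leukocyte subunit, gave 0.36 (SE 0.102, adjusted p = 0.181), and ITGA2B, the platelet subunit, gave 0.29 (SE 0.0941, adjusted p = 0.223), or 0.15 with the mean of its probe sets. The members and these subunits were both split in direction, and a difference between the groups of subunits was not tested.

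The collagens, ligands of ITGA1 and ITGA2, had the lowest median of the lists outside the members, at -0.39 over 14 genes, of which 8 were lower and 0 higher at an unadjusted p of 0.05. COL5A1, COL5A2, COL1A1 and COL3A1, chains of fibrillar collagens, gave -0.77 (SE 0.126, adjusted p = 0.0577), -0.62 (SE 0.11, adjusted p = 0.0697), -0.60 (SE 0.108, adjusted p = 0.0711) and -0.71 (SE 0.144, adjusted p = 0.0934). A dimmer probe set of COL5A2, 221730_at, passed over all probe sets at -0.64 (adjusted p = 0.0424), but not when any 1 array was left out. Non-overlapping groups with lower wt values were seen in 8 of the 14 collagens, against 13.4% of all genes. ITGA1 and these collagens were thus lower in the wt group, and COL5A1, COL1A1 and COL3A1 were also highest on mutant replicate 3. Among the mutant arrays ITGA1 was lowest on replicate 2, but COL5A1, COL5A2, COL1A1 and COL3A1 on replicate 1. ITGA1 fell from wt replicate 1 to 2 (3.83 to 3.62), while COL5A1, COL5A2, COL1A1 and COL3A1 rose (COL3A1 from 11.06 to 11.45). COL4A1 (11.61 to 11.45) and COL4A2 (11.62 to 11.41) fell. Of the 14 collagens, 9 had lower and 5 higher wt means.

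The laminins and other basement membrane proteins, ligands of ITGA3, ITGA6, ITGA7 and ITGB4, had a median of -0.12 over 13 genes, of which 1 was lower and 0 higher at an unadjusted p of 0.05. LAMB2 (laminin beta 2) gave -0.40 (SE 0.1, adjusted p = 0.144), LAMB1 (laminin beta 1) -0.22 (SE 0.0998, adjusted p = 0.374) and NID2 (nidogen 2) -0.21 (SE 0.111, adjusted p = 0.434), while LAMA2 (laminin alpha 2) gave 0.19 (SE 0.0963, adjusted p = 0.419). LAMB1 was at -0.14 without mutant replicate 2, and NID2 at -0.07 without wt replicate 2. At this threshold 8.84% of all genes were higher and 6.87% lower. With only 13 ligands, these counts do not set them apart from all genes. By their means 5 of them were higher and 8 lower. A contrast between ITGA6 and these ligands was not tested. Of 5 receptors for collagen or laminin that are not integrins, DDR2, a collagen-binding tyrosine kinase, was the only one at an unadjusted p below 0.05, with -0.28 (SE 0.0775, adjusted p = 0.181). SGCB and SGCE, sarcoglycans of the dystroglycan complex, and BCAM, a laminin receptor of the immunoglobulin family, gave -0.10, 0.04 and -0.08.

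Tetraspanins and other membrane partners had a median of -0.01 over 9 genes. CD9, a tetraspanin that associates with laminin-binding integrins and marks hESC, read 10.40, 10.52 and 10.45 on the mutant arrays and 10.71 on each wt array, a difference of 0.26 (SE 0.0753, adjusted p = 0.194). CD151, the tetraspanin bound most tightly by ITGA3 and ITGA6, read 8.28, 8.20 and 8.29 on the mutant arrays and 8.01 and 8.02 on the wt arrays, a difference of -0.24 (SE 0.0742, adjusted p = 0.206). These 2 tetraspanins lay apart in opposite directions with no overlap between the groups. CD47, an immunoglobulin-family partner of integrins, gave -0.22 (SE 0.0949, adjusted p = 0.353), and the tetraspanin CD63 gave -0.13 (SE 0.0741, adjusted p = 0.487).

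Of 5 measured hemidesmosome partners of ITGB4, none was at an unadjusted p below 0.05. PLEC (plectin) gave -0.16 (SE 0.0743), DST (dystonin) -0.21 (SE 0.0995), ERBIN, an adaptor that binds ITGB4, -0.16 (SE 0.103), and KRT5, a keratin of basal epithelium, 0.13 (SE 0.0759) on a dim probe set. Without wt replicate 2, DST was at -0.08 and ERBIN at -0.01. COL17A1 was not measured by a probe set of its own. Of 18 cytoplasmic adaptors and kinases, 5 were lower and 0 higher at an unadjusted p of 0.05, with a median of -0.11. PARVA (alpha-parvin), which links integrins to actin, was at -0.52 (SE 0.0926, adjusted p = 0.0691), and TLN1 and TLN2, the talins that activate integrins, gave -0.45 (SE 0.102, adjusted p = 0.117) and -0.32 (SE 0.0871, adjusted p = 0.169). ZYX, zyxin of focal adhesions, gave -0.22 (SE 0.08, adjusted p = 0.27).

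**Figure D5:**
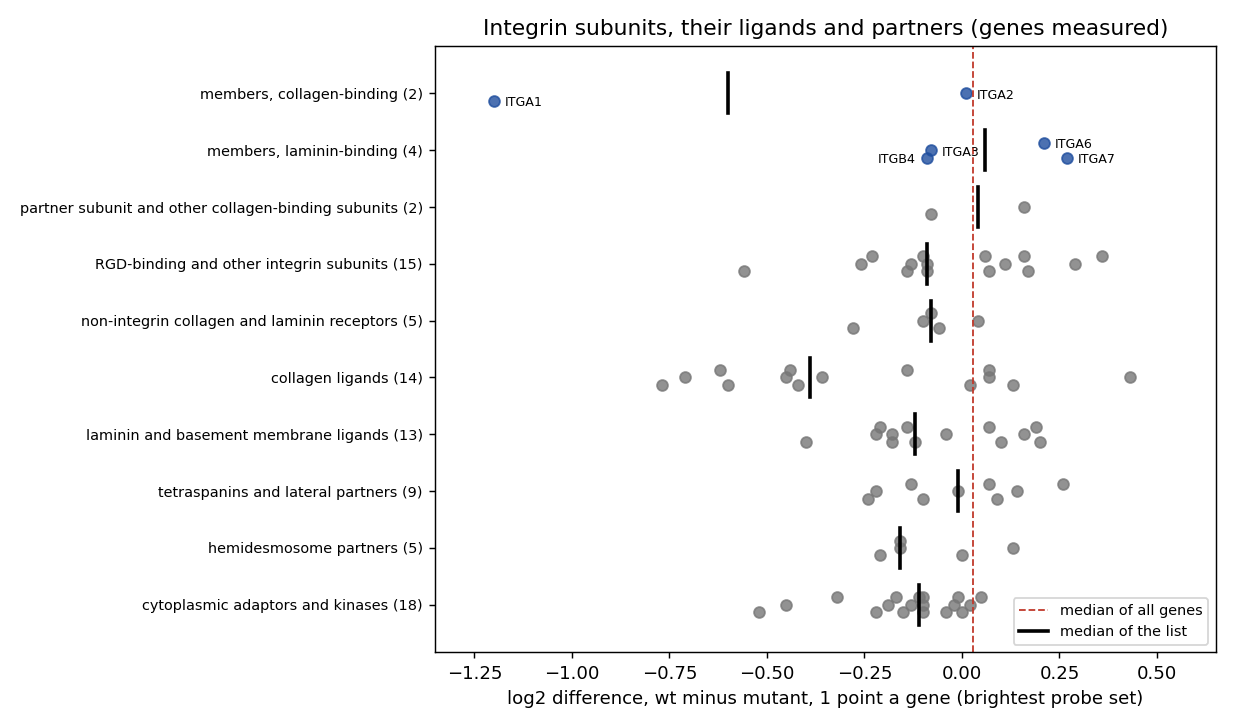
Difference in log2 value, wt minus mutant (x axis), of each measured gene at its brightest probe set, by list (number of genes measured). Blue points are the 6 members, grey points the genes they work with, black lines the list medians and the red dashed line the median of all genes, 0.027. ITGA1 is the lowest point, at -1.20, the collagens have a median of -0.39, and ITGA6 and ITGA7 lie at 0.21 and 0.27.

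Markers of some cell types also differed between the groups at an unadjusted p of 0.05 by limma. At this threshold 8.84% of all genes were higher and 6.87% lower, so 1 call in a short list is near those shares. In RNA of a whole culture fewer cells of a type cannot be told apart from less RNA per cell. All 9 measured markers of undifferentiated hESC were higher at an unadjusted p of 0.05, and their mean level was 8.74 to 8.86 on the mutant arrays and 9.32 to 9.33 on the wt arrays. Of these, DNMT3B rose by 0.72 (adjusted p = 0.0333) and UTF1 rose by 0.75 (adjusted p = 0.0424), and NANOG (0.79, adjusted p = 0.0588) and L1TD1 (0.41, adjusted p = 0.0653) did not pass. The calls of DNMT3B and UTF1 ended whichever array was left out, at adjusted p-values of 0.0582 or more. ITGA6 and CD9 were higher on the same arrays.

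Of 10 markers of mesenchymal cells and fibroblasts, 4 were lower and 0 higher at an unadjusted p of 0.05, against 6.87% and 8.84% of all genes. Their mean level was 6.91 to 7.24 on the mutant and 6.68 to 6.95 on the wt arrays. The 4 were PDGFRB (-0.56), LUM (-0.90), FBN1 (-0.45) and PDGFRA (-0.33), with adjusted p-values from 0.0521 to 0.306. PDGFRA was at -0.20 without wt replicate 1 and at 0.04 with the mean of its probe sets. By their means 6 of the 10 markers were lower and 4 higher, and the latter were THY1 (0.23), TWIST1 (0.20), FAP (0.20) and PRRX1 (0.07), with adjusted p-values of 0.439 or more. Of 8 muscle markers, 3 were lower and 0 higher, with a mean level of 8.30 to 8.48 on the mutant and 8.15 to 8.22 on the wt arrays. The 3 were ACTA2 (-0.67), ACTC1 (-0.46) and TAGLN (-0.36), and CNN1 gave -0.29. ACTA2 was at -0.28 with the mean of its probe sets, and CNN1 at -0.16 without mutant replicate 3 and -0.18 without wt replicate 1. Both lists had their highest mean level on mutant replicate 3, the array on which ITGA1 was highest. So did the collagens (9.89) and the cytoplasmic adaptors and kinases (8.71). Among the mutant arrays alone, the undifferentiated hESC markers were highest on replicate 3 too (8.86), though higher still on the wt arrays. Between the wt arrays the lists were split. ITGA1 was lower on wt replicate 2 than on wt replicate 1 (3.62 against 3.83). The mesenchymal (6.95 against 6.68) and muscle (8.22 against 8.15) lists, and slightly the collagens, were higher there. The cytoplasmic adaptors and kinases were lower there (8.47 against 8.52), as ITGA1 was. By their means 6 of the 8 muscle markers were lower and 2 higher. The defining genes of skeletal muscle, MYOD1 (-0.06) and MYOG (0.24), did not differ at this threshold. Neither did MYH11 (0.11) or DES (-0.03), also on the muscle list.

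Among the other lists, 4 of 8 trophoblast markers were lower and 0 higher at an unadjusted p of 0.05, and HSD3B1 fell by 1.56 (adjusted p = 0.0424, and at least 0.0741 with any array left out), while CGA gave -1.08, KRT7 -0.77 and VGLL1 -0.40. KRT7 and VGLL1 were at -0.45 and -0.22 without wt replicate 2 and at -0.40 and -0.11 with the mean of each gene's probe sets, and VGLL1 was at -0.26 without mutant replicate 2. GATA3 (-0.18), TFAP2A (-0.08), GCM1 (-0.05) and PSG1 (0.16) did not differ at this threshold. The mean level of the 8 trophoblast markers was 7.61 to 7.88 on the mutant and 7.16 to 7.36 on the wt arrays. Of 7 epithelial markers, 3 were lower and 0 higher, KRT8 (-0.28), KRT18 (-0.27) and KRT19 (-0.26), and EPCAM gave 0.10. Without wt replicate 2, KRT8 and KRT18 were each at -0.11 and KRT19 at -0.15, with adjusted p-values of 0.814 or more. Of 7 endothelial markers, 1 was higher, KDR (0.35), where 8.84% of all genes were. The probe sets of ERG (0.15), PECAM1 (0.10) and CDH5 (0.11) were dim. KDR was at 0.12 (adjusted p = 0.818) without wt replicate 2. Of 6 endoderm markers, HHEX (0.91, and 0.98 on its dimmer probe set, with adjusted p = 0.0228, or at least 0.0563 with any array left out) and CXCR4 (0.65) were higher and GATA6 (-0.49) lower, and FOXA2 gave 0.18. CXCR4 was at 0.41 without wt replicate 1. Of 5 neural markers, 1 was lower, NES (-0.26), where 6.87% of all genes were. FABP7, PAX6 and SOX1 gave 0.29, 0.18 and 0.05. Without wt replicate 2 FABP7 was at 0.03, and without wt replicate 1 PAX6 was at -0.02. RMA values have no true 0, so no marker can be called absent. The part that any of these cell types had in the values of the integrin subunits was not tested.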

How the data were processed

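RNA of HES2 cells was hybridized to Affymetrix human expression arrays, 2 for wt and 3 for mutant miR-122, grouped by their titles. The authors normalized the arrays with RMA and deposited 1 log2 value per probe set and array. From the 22277 probe sets 62 controls were removed. The other 22215 entered 1 linear model per probe set (limma 3.58.1, lmFit and eBayes, under R 4.3.3) that held group alone, with Benjamini-Hochberg adjustment over all of them. The median SE of a difference was 0.0878, and the number of arrays sets the precision. Tested on 20 simulated data sets, the fit called 96.6% of the 2-fold and 62% of the 1.5-fold changes. The simulated noise was normal, with spreads drawn from the distribution that limma itself fitted. The shares therefore describe such noise and are not the power of these arrays. Confidence intervals are unadjusted, at 95%.

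Gene names are those of GEO's annotation of the platform, which pairs 19064 probe sets with 1 gene. Genes were read at their brightest probe set, by the mean over the 5 arrays. The members and lists were chosen with earlier results of these data known. Named were all member probe sets, up to 4 genes of each list with the smallest p, and the 3 genes nearest to each member whose groups did not overlap. THY1, TWIST1, FAP, PRRX1, MYOD1, MYOG, MYH11, DES, GATA3, TFAP2A, GCM1, PSG1 and PELO were named after values were seen. So were the dimmer probe sets of COL5A2 and HHEX, and unmeasured genes.

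As alternatives, the methods' t-test was run, the prior was given a robust fit with an intensity trend, probe sets below the median level or ending in _x_at and _s_at were dropped, and array weights, centring, a replicate block, gene means over probe sets and fits without each array were tried.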

Additional observations from a re-analysis of the deposited data

How the results depend on the processing

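Over all probe sets, 43 were higher and 42 lower. These counts were 0 and 0 by the methods' t-test, 137 and 183 with an intensity trend and robust prior, 62 and 97 with the filter on level, and 364 and 531 with a replicate block. Leaving out any mutant array gave 0 higher and 0 lower, with fewer arrays in the fit. No member passed an adjusted p of 0.05 in any setting but the replicate block, where 2 passed, ITGA1 at -0.85 (adjusted p = 8.07e-05) and 215177_s_at of ITGA6 at 0.48 (adjusted p = 0.00858). The block takes same-numbered arrays as pairs, which no source states. It leaves mutant replicate 3 without weight. With the block the SE was 0.0984 for both ITGA1 and 215177_s_at, against 0.298 and 0.0922 without it. So few arrays are then left to measure spread that these p-values rest mostly on the spread limma shares across probe sets. Deviations of same-numbered arrays from their group means correlated at 0.147 and 0.123, but with 2 wt arrays these are not independent, and replicate numbers are not taken as pairs here.

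At an unadjusted p of 0.05, 3 member probe sets were higher and 1 lower. The higher count was 1 with the replicate block and 1 to 3 when an array was left out, and the lower count was 0 with the filter on level, which removed ITGA1. Of the related genes, 3 higher and 19 lower at this threshold became 1 higher by the methods' t-test and 1 with the filter, 5 higher with the block, 3 to 5 higher without an array and 10 lower without _x_at and _s_at probe sets. At an adjusted p of 0.05, 0 related genes became 5 lower with the trend, 4 with the filter, 1 without _x_at and _s_at probe sets, 9 with the block and 2 with the mean of a gene's probe sets.

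The sign turned for ITGA2 (-0.04 with the block, -0.0028 with array weights, -0.07 to 0.09 without an array), for ITGA3 (-0.18 to 0.02 without an array, above 0 without wt replicate 1) and for 211905_s_at of ITGB4 (-0.12 to 0.04, above 0 without wt replicate 2). It also turned for BCAM (-0.18 to 0.09, above 0 without mutant replicate 2), FOXA2 (-0.02 to 0.37, below 0 without wt replicate 2), PAX6 (-0.02 to 0.39, below 0 without wt replicate 1), and, with the mean of a gene's probe sets, for DST (0.01), PDGFRA (0.04) and SGCB (0.0015). The calls of DNMT3B, UTF1 and HSD3B1 ended when any array was left out. The cause of these changes was not tested.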
